A study of Bos taurus with 8 samples.

Results

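JUNB, FOSL2 and MYC are 3 of the 25889 genes and transcribed units counted by RNA-seq in bovine endothelial cells treated with leukemia inhibitory factor (LIF). They were taken as early growth-response transcription factors from the table of genes that the study had called after LIF in choroidal endothelial cells. That contrast therefore chose the 3 genes, and their values in it are given as a description without a test. In the counts they are ENSBTAG00000012046 (JUNB), ENSBTAG00000023929 (FOSL2) and ENSBTAG00000008409 (MYC), and all 3 passed the filter on low counts in every comparison.

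AP-1 is a transcription factor made of a pair of basic leucine zipper proteins, typically one of the JUN and one of the FOS family. JUNB is a JUN protein and FOSL2, also named FRA-2, is a FOS protein. MYC is a basic helix-loop-helix zipper protein that binds DNA as a dimer with MAX and is best known for driving cell growth and entry into the cell cycle. Genes of both families are transcribed soon after a growth factor or cytokine reaches the cell. LIF acts through a receptor made of LIFR and gp130, which signals through JAK kinases and STAT3 and through MAP kinases.

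The libraries came as 2 biological replicates in each of 4 groups. Bovine choroidal endothelial (BCE) cells, from the vascular bed under the retina, had been maintained with bFGF and VEGF in 10% calf serum. Bovine aortic endothelial (BAE) cells had been maintained in 10% calf serum without these factors. Both were placed in assay medium for 3 h, with 10% serum for BCE and 1% for BAE cells, and then received 10 ng/ml LIF or vehicle (BSA in PBS) for 6 h. Cell type, maintenance medium and the serum of the assay medium differ together, so their parts in any difference between BCE and BAE cells cannot be told apart. In such bulk libraries, fewer cells expressing a gene and less of its RNA per cell cannot be told apart either.

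Library totals ranged from 18600598 to 35269335 counts. Levels are given as CPM, a gene's counts relative to its library's total, and were computed on totals scaled by the trimmed mean of M values (TMM), and the scaling factors lay between 0.960 and 1.03. The vehicle-treated BCE replicates differed most from each other, with a chi-square per gene of 10.2, against 2.64 to 5.91 in the other groups. The counting error of the 3 genes was at most 2.08% in any library. No cell type marker of the lists used had an identifier paired with its name, so the labelled cell types were not checked against markers here.

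JUNB had 3261 and 2301 counts in the vehicle-treated BCE libraries and 3849 and 2635 in the LIF-treated ones. In BAE cells it had 5047 and 2952 counts with vehicle and 6613 and 7912 with LIF. Scaled for depth, JUNB stood at 109.6 and 95.4 CPM in vehicle-treated BCE, 149.1 and 137.0 CPM in LIF-treated BCE, 146.9 and 135.2 CPM in vehicle-treated BAE and 315.8 and 307.2 CPM in LIF-treated BAE libraries. The LIF-treated BAE libraries were highest and the vehicle-treated BCE libraries lowest, whereas the LIF-treated BCE and vehicle-treated BAE libraries overlapped.

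FOSL2 was counted 3333 and 2582 times in BCE libraries with vehicle, and 4855 and 3533 times with LIF. The corresponding BAE counts were 3982 and 2657 with vehicle and 6225 and 7089 with LIF. Its scaled levels were 112.0 and 107.1 CPM in vehicle-treated BCE, 188.1 and 183.7 CPM in LIF-treated BCE, 115.9 and 121.7 CPM in vehicle-treated BAE and 297.3 and 275.3 CPM in LIF-treated BAE libraries. The vehicle-treated libraries of both cell types lay close together, and no library of LIF-treated cells reached down to them.

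MYC was counted 5023 and 4379 times in BCE libraries with vehicle, and 5598 and 4204 times with LIF. In BAE libraries it had 7044 and 4436 counts with vehicle and 7974 and 9271 with LIF. MYC stood at 168.8 and 181.6 CPM in vehicle-treated BCE, 216.8 and 218.5 CPM in LIF-treated BCE, 205.0 and 203.2 CPM in vehicle-treated BAE and 380.8 and 360.0 CPM in LIF-treated BAE libraries. The LIF-treated BAE libraries of MYC were highest, and the other 3 groups lay within a narrow band below them.

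**Figure D1:**
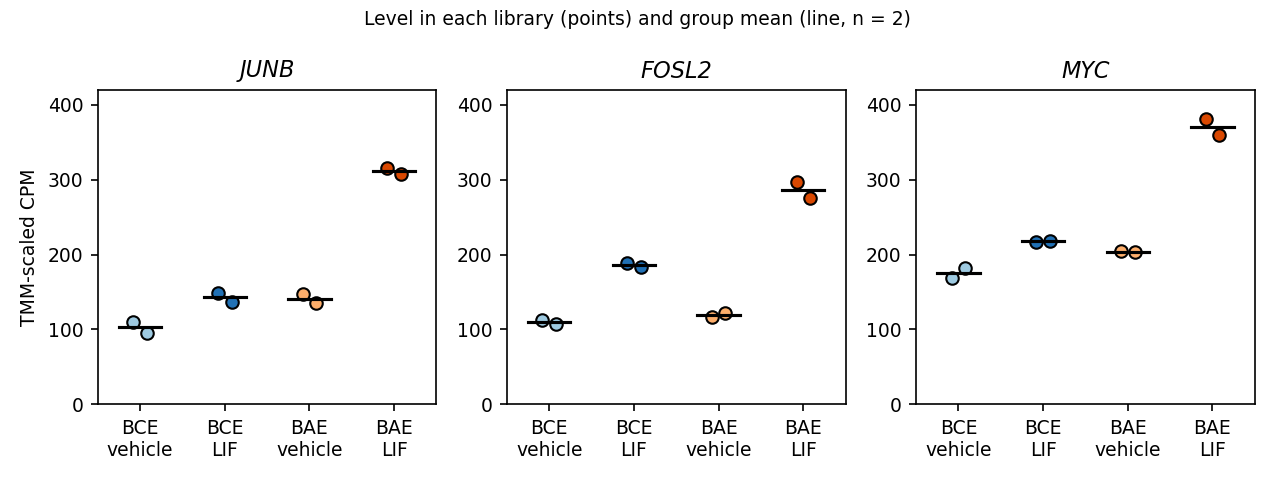
TMM-scaled CPM (linear axis from 0) of JUNB, FOSL2 and MYC in each of 8 libraries, with points for the replicates and a line for the mean of each group (n = 2). In every panel the LIF-treated BAE libraries are highest, between 275.3 and 380.8 CPM over the 3 genes.

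The group means of the 3 genes came in the same order, from vehicle-treated BCE through vehicle-treated BAE and LIF-treated BCE to LIF-treated BAE cells. For JUNB the means were 102.5 ± 10.0, 141.0 ± 8.25, 143.0 ± 8.57 and 311.5 ± 6.10 CPM in that order (SD, n = 2). LIF-treated BCE cells had 1.01 times the JUNB level of vehicle-treated BAE cells, which is within the spread of the replicates, so these neighbours were not separated. For FOSL2 the means were 109.6 ± 3.49, 118.8 ± 4.11, 185.9 ± 3.12 and 286.3 ± 15.6 CPM (SD, n = 2). The lowest pair of FOSL2 groups was separated by a gap of only 3.85 CPM between the nearest libraries. For MYC the means were 175.2 ± 9.05, 204.1 ± 1.28, 217.7 ± 1.19 and 370.4 ± 14.8 CPM (SD, n = 2). The vehicle-treated BAE and LIF-treated BCE libraries of MYC were 11.9 CPM apart at their nearest.

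The LIF effect in BAE cells asks whether the genes chosen in choroidal cells also responded in aortic cells, whose libraries had no part in the choice. JUNB, FOSL2 and MYC all rose (3 of 3). Of the 13034 genes tested, 13.6% were called higher, 8.55% lower and 22.2% in either direction. The 107 tested genes with a name, the 3 among them, had all been called by the study in BCE cells. Of these, 80 were called higher and 20 lower in BAE cells. Among the 107, ordered by log2 fold change, FOSL2 stood at rank 21, JUNB at 25 and MYC at 38. The JUN protein JUNB rose by a log2 fold change of 1.17 (SE 0.0477, 95% interval 1.07 to 1.27) with an adjusted p of 2.70e-11 in edgeR's quasi-likelihood test. Its mean level went from 141.0 to 311.5 CPM, a 2.21-fold difference, and the groups did not overlap.

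The FOS protein FOSL2 had the largest log2 fold change of the 3 genes in BAE cells, 1.30 (SE 0.0489, 95% interval 1.20 to 1.41), with an adjusted p of 1.23e-11 in edgeR's quasi-likelihood test. Its mean level was 2.41-fold higher with LIF. MYC rose least, by 0.89 (SE 0.0441, 95% interval 0.80 to 0.99), with an adjusted p of 2.49e-10 in edgeR's quasi-likelihood test and a 1.82-fold higher mean. The interval of MYC lay below those of both AP-1 genes, while the intervals of JUNB and FOSL2 overlapped. These differences between genes were not tested.

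Ordered by log2 fold change over the 13034 genes tested in BAE cells, FOSL2 was at rank 121, JUNB at 157 and MYC at 279. Among the 1774 genes called higher, the ranks were 106, 130 and 213. The 3 genes thus stood in the upper tail of the aortic response but not at its end. Groups without overlap and higher with LIF were found for all 3 genes and for 26% of all genes tested. Leaving out LIF-treated BAE replicate 1 lowered the calls in either direction from 2889 to 1807. With any 1 library left out, the log2 fold change ranged from 1.12 to 1.23 for JUNB, from 1.23 to 1.35 for FOSL2 and from 0.84 to 0.93 for MYC.

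**Figure D2:**
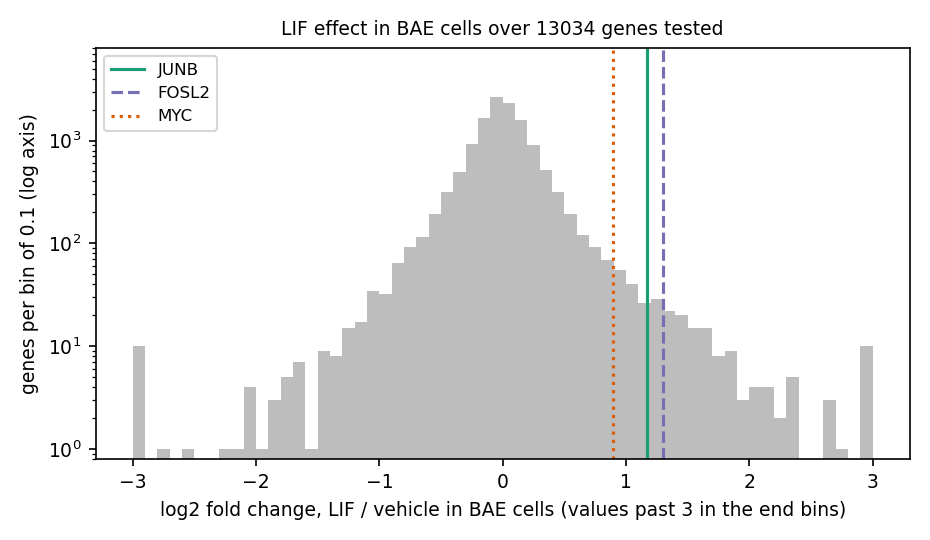
Number of genes (log axis) by log2 fold change of LIF over vehicle in BAE cells, in bins of 0.1, for the 13034 genes tested, with values beyond 3 in either direction gathered in the end bins. Lines mark MYC at 0.89, JUNB at 1.17 and FOSL2 at 1.30, to the right of the bulk of genes around 0.

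In BCE cells the same treatment for the same time chose the genes, so only sizes are given. JUNB was 1.40-fold higher on average with LIF, a log2 fold change of 0.48 (SE 0.0725, 95% interval 0.32 to 0.64). FOSL2 was 1.70-fold higher, a log2 fold change of 0.76 (SE 0.0520, 95% interval 0.65 to 0.88). MYC was 1.24-fold higher, a log2 fold change of 0.31 (SE 0.0531, 95% interval 0.20 to 0.43). FOSL2 had the largest and MYC the smallest value, in the same order as in BAE cells.

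Of the 13014 genes tested in BCE cells, 0.922% were called in either direction and 0.692% higher with LIF, and 20.1% were higher in both LIF libraries than in both vehicle libraries. With all libraries JUNB, FOSL2 and MYC were under the threshold and without overlap, and nothing is read from that, since they were chosen on this contrast. Whether JUNB and MYC stayed under the threshold depended on which library was left out, and nothing is read from this either. The number of calls in BCE cells was 120 with all libraries. It was 1423 without vehicle-treated BCE replicate 1, 477 without vehicle-treated replicate 2, 56 without LIF-treated replicate 1 and 55 without LIF-treated replicate 2. Over the same omissions the log2 fold change ranged from 0.39 to 0.59 for JUNB, from 0.73 to 0.80 for FOSL2 and from 0.26 to 0.37 for MYC.

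Aortic cells also gained more of each transcript in absolute level. JUNB gained 170.5 CPM in BAE and 40.5 CPM in BCE cells. FOSL2 gained 167.5 and 76.3 CPM, and MYC gained 166.3 and 42.5 CPM. The ratio of the gain in BAE to that in BCE cells was 4.21 for JUNB and 3.92 for MYC, and it was smallest for FOSL2.

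On the log2 scale the LIF effect in BCE minus that in BAE cells was -0.66 for JUNB (SE 0.0921, 95% interval -0.86 to -0.47). It was -0.51 for FOSL2 (SE 0.0738, 95% interval -0.66 to -0.35) and -0.55 for MYC (SE 0.0700, 95% interval -0.70 to -0.40). The 3 intervals overlapped one another. No test is given, and the intervals are not read against 0, since this difference contains the contrast that chose the genes. Across all genes, 3.68% of the 13646 tested were called for this difference.

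**Figure D3:**
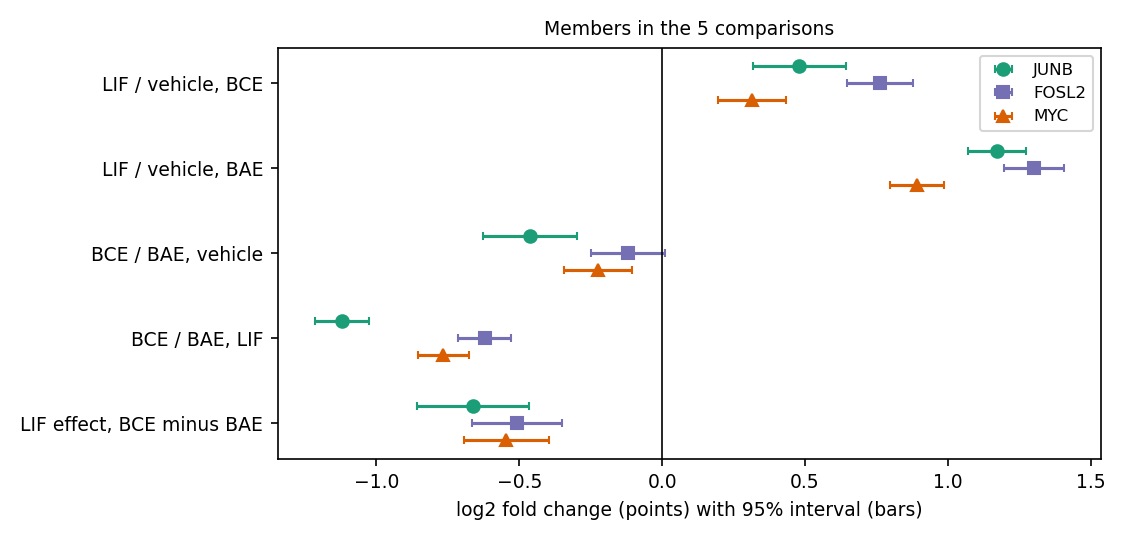
log2 fold changes (points) with 95% intervals (bars) of JUNB, FOSL2 and MYC in 5 comparisons, from edgeR fits on 2 libraries per group. The points of both LIF effects lie to the right of 0, the BAE values (0.89 to 1.30) further than the BCE values (0.31 to 0.76). The points comparing BCE with BAE cells lie to the left, and the interval of FOSL2 with vehicle reaches 0.01. Only the LIF effects in BAE cells were tested.

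Without LIF, JUNB, FOSL2 and MYC had lower mean levels in BCE than in BAE cells. This comparison uses the vehicle-treated BCE libraries that also entered the contrast on which the genes were chosen, and genes chosen for a higher level with LIF tend to have low values there. Sizes are therefore given without a test. JUNB differed most, with a log2 fold change of -0.46 (SE 0.0747, 95% interval -0.63 to -0.30). BAE cells had 1.38 times its level in BCE cells.

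MYC had a log2 fold change of -0.22 (SE 0.0550, 95% interval -0.34 to -0.10), and BAE cells had 1.16 times its level in BCE cells. FOSL2 had the smallest difference, -0.12 (SE 0.0588, 95% interval -0.25 to 0.01), and BAE cells had 1.08 times its level in BCE cells. Each of the 3 genes was lower in both vehicle-treated BCE libraries than in either vehicle-treated BAE library, as were 38.8% of the 13426 genes tested. With 1 library left out at a time, the values ranged from -0.58 to -0.36 for JUNB, from -0.27 to -0.18 for MYC and from -0.16 to -0.08 for FOSL2.

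After LIF the cell types stood further apart. LIF-treated BAE cells had 2.18 times the JUNB, 1.54 times the FOSL2 and 1.70 times the MYC level of LIF-treated BCE cells. The log2 fold changes of BCE against BAE cells were -1.12 for JUNB (SE 0.0463), -0.62 for FOSL2 (SE 0.0453) and -0.77 for MYC (SE 0.0431), given without a test. All 3 genes were lower in both LIF-treated BCE libraries than in either LIF-treated BAE library, as were 40.4% of the 13217 genes tested.

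Among genes with related roles, the lists of JUN proteins, FOS proteins and the MYC and MAX network hold 21 genes, of which only the 3 described have an identifier paired with their name. Their partners, such as JUN, FOS and MAX, were not analysed here. Of 165 genes in all lists, 13 could be measured, and all 13 had been called by the study in BCE cells. Their direction there is therefore not independent evidence, and their tests below are those of the LIF effect in BAE cells. Genes chosen in the same way are the 107 with a name tested in BAE cells, of which 80 were called higher and 20 lower.

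The other early response list had 2 measured genes, and both rose with LIF in BAE cells, where 13.6% of all genes tested were called higher. CSRNP1, a nuclear protein induced by AXIN1, had a log2 fold change of 0.90 (SE 0.0773, adjusted p 2.35e-07 in edgeR's quasi-likelihood test). ETS2, an ETS transcription factor downstream of MAP kinases, had 1.46 (SE 0.0769, adjusted p 5.73e-10 in edgeR's quasi-likelihood test). The value of CSRNP1 was near that of MYC, and that of ETS2 was above all 3 genes.

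Of the list of LIF receptor and JAK-STAT genes, 5 were measured in BAE cells, of which 4 rose and 1 fell, beside 13.6% of all genes tested called higher and 8.55% called lower. SOCS3, the feedback inhibitor of gp130 signaling, rose by 3.44 on the log2 scale (SE 0.0875, adjusted p 1.01e-13 in edgeR's quasi-likelihood test), far above JUNB, FOSL2 and MYC. OSMR, the oncostatin M receptor chain, rose by 1.20 (SE 0.0767, adjusted p 5.72e-09 in edgeR's quasi-likelihood test). STAT3, the main transcription factor of the pathway, rose by 0.99 (SE 0.0415, adjusted p 3.88e-11 in edgeR's quasi-likelihood test). Values of the same size as JUNB and MYC thus occurred in the receptor and in STAT3 itself. SOCS2, another member of the SOCS family, fell by 0.75 on the log2 scale (SE 0.160, adjusted p 0.00270 in edgeR's quasi-likelihood test).

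Of the listed genes that MYC is known to lower, both measured ones rose with LIF in BAE cells, beside the same 13.6%. The stress gene GADD45G rose by 2.38 (SE 0.398, adjusted p 0.000325 in edgeR's quasi-likelihood test), from 0.304 to 1.64 CPM. Its vehicle-treated BAE libraries stood at 0.229 and 0.378 CPM, where 3 counts correspond to 0.0873 to 0.137 CPM. The fold change of GADD45G thus rests on few counts. NDRG1, a gene linked to differentiation, rose by 0.35 (SE 0.0579, adjusted p 0.000292 in edgeR's quasi-likelihood test), from 57.6 to 71.9 CPM. None of the 27 listed genes that MYC is known to raise had an identifier paired with its name. Genes raised by MYC but outside the list were not examined.

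A group of 23 genes, the 3 described among them, was taken from the study's gene ontology terms for the regulation of transcription. All had been called higher by the study after LIF in BCE cells. The terms also take in genes that are not transcription factors, such as NEDD4L. All 23 rose in BAE cells, and their median log2 fold change was 1.17. Over all genes tested 13.6% were called higher, and the median was -0.0039. The list was chosen on BCE libraries of the same treatment, so it is not a random sample of genes under these terms. FOSL2 stood at rank 10, JUNB at 12 and MYC at 15 of the 23 in BAE cells, near the middle. In BCE cells FOSL2 stood at rank 6, JUNB at 18 and MYC at 23, the smallest value of the list. The extremes in BAE cells were CEBPD, a transcription factor induced by IL-6 family cytokines, at 3.57 and NEDD4L, a ubiquitin ligase, at 0.29. For 21 of the 23 genes, JUNB, FOSL2 and MYC included, the BAE value exceeded the BCE value. The share of all genes with a larger BAE value was not computed. The median LIF effect in BCE minus that in BAE cells was -0.508 for the 23 and 0.0235 over the 13646 genes tested for this difference. The 23 were chosen as genes responding to LIF, so these medians do not compare like sets. Whether other genes responding to LIF differ in the same way was not tested.

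**Figure D4:**
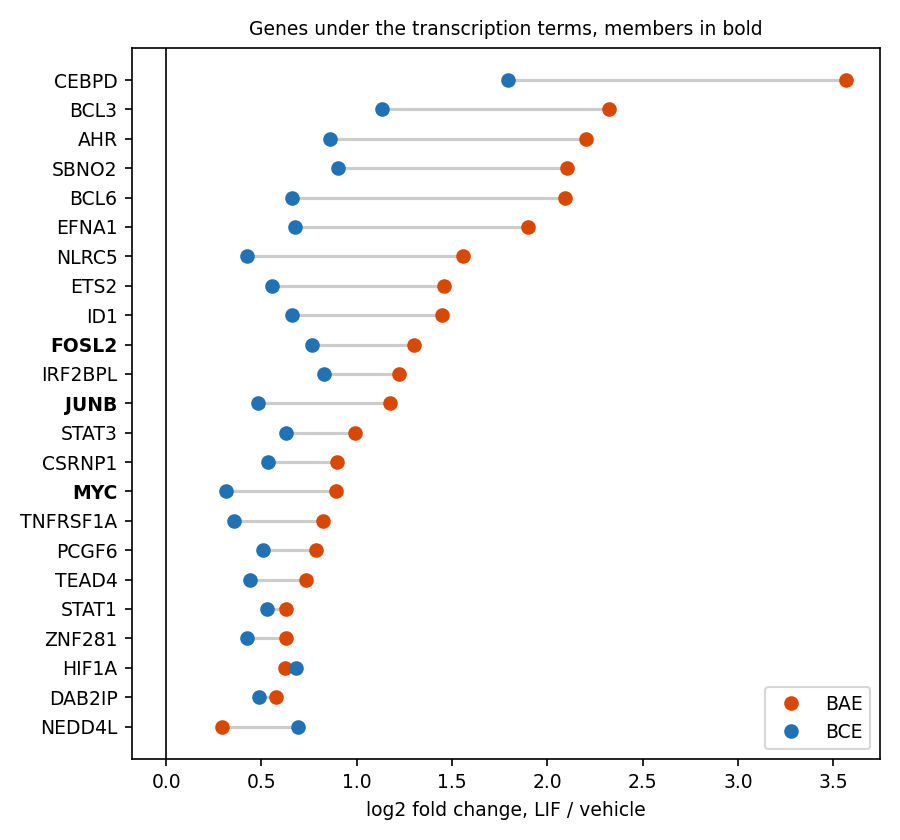
log2 fold change of LIF over vehicle in BAE (orange) and BCE cells (blue) for 23 genes, ordered by the BAE value, with FOSL2, JUNB and MYC in bold. The genes are those under the transcription terms that the study called higher in BCE cells. The orange point lies to the right for 21 of 23 genes, and MYC has the smallest blue value, 0.31.

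The vehicle levels of this group are likewise given without a test, since its genes were chosen with the same BCE libraries. Of the 23 genes, 16 had a higher and 7 a lower value in vehicle-treated BCE than in BAE cells. Over all 13426 genes tested, 50% had a higher and 50% a lower value. JUNB, FOSL2 and MYC were 3 of the 7 lower genes, and only IRF2BPL, a nuclear RING finger protein, and DAB2IP, a RAS GTPase-activating protein, had lower log2 fold changes than JUNB.

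The patterns most like those of the 3 genes were sought over the 8 libraries, as the root-mean-square difference of log2 CPM after each gene was centred on its own mean. The search named only the 110 other genes with a name, all called by the study in BCE cells. Among these named genes, the pattern nearest to JUNB was that of HIVEP2, a zinc finger transcription factor, at 0.120. IRF2BPL at 0.144 and the endothelial adhesion receptor SELP at 0.160 came next. Of all 13645 other genes, HIVEP2 was at rank 2, IRF2BPL at 3 and SELP at 7. In mean level HIVEP2 went from 32.5 to 48.9 CPM with LIF in BCE and from 41.0 to 88.0 CPM in BAE cells. As for JUNB, its largest value was that of LIF-treated BAE cells and its smallest that of vehicle-treated BCE cells.

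The pattern nearest to FOSL2 was that of OSMR at 0.0904, which was also the nearest of all 13645 other genes, followed by MARCHF3, a membrane-bound ubiquitin ligase, at 0.143 and HIVEP2 at 0.147. OSMR went from 22.7 to 42.9 CPM with LIF in BCE and from 24.96 to 56.2 CPM in BAE cells. Like FOSL2, OSMR had nearly level vehicle groups. The nearest named gene to MYC was SYNPO, an actin-associated protein, at 0.0966. The threonyl-tRNA synthetase TARS1 at 0.105 and the matrix protein THBS2 at 0.127 followed. Of all 13645 other genes, SYNPO was at rank 5, TARS1 at 7 and THBS2 at 12. SYNPO went from 249.5 to 314.5 CPM with LIF in BCE and from 340.7 to 547.9 CPM in BAE cells. Between the 3 genes the difference was 0.209 for JUNB and MYC, 0.229 for FOSL2 and MYC and 0.247 for JUNB and FOSL2. The genes named above were picked as the nearest, so larger values here follow from that choice. Of all 13645 other genes, MYC was at rank 15 from JUNB and 14 from FOSL2. JUNB was at rank 23 from FOSL2, and FOSL2 at 36 from JUNB. From MYC, JUNB was at rank 127 and FOSL2 at 164. The 8 libraries share 4 treatments, so these differences and ranks mainly compare group means.

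**Figure D5:**
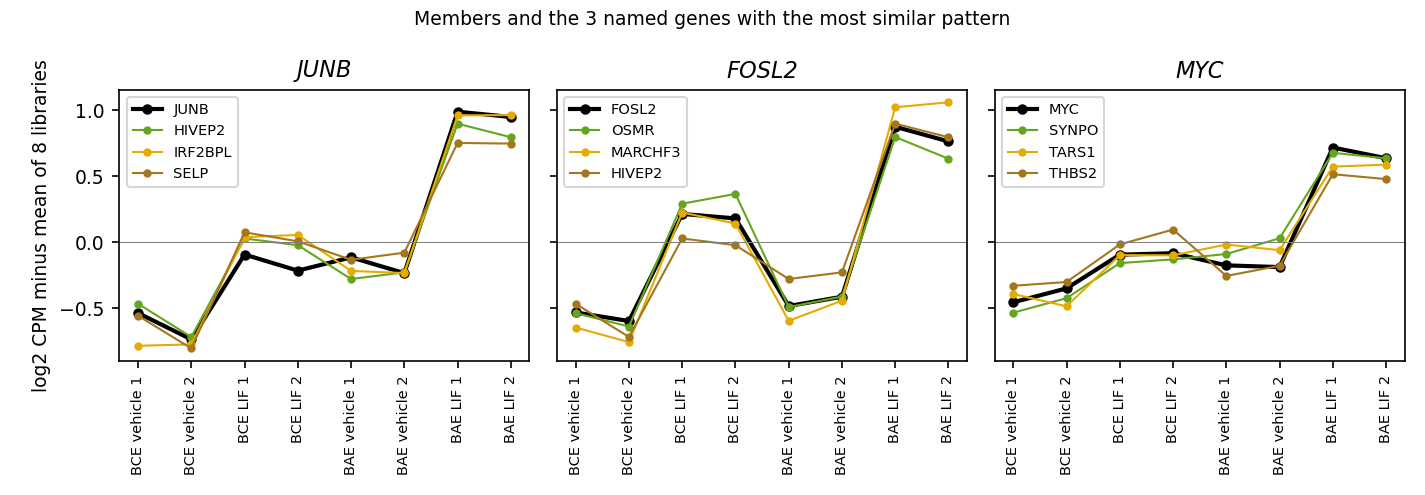
log2 CPM minus the mean of 8 libraries (vertical axis) in each library (horizontal axis, replicates of a group side by side) for each of JUNB, FOSL2 and MYC (black) and the 3 named genes with the most similar pattern (coloured). Every line is highest in the LIF-treated BAE libraries, and that of OSMR lies closest to FOSL2, at a root-mean-square difference of 0.0904.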

How the data were processed

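Bulk RNA from 8 libraries was sequenced as paired-end reads. Per the labels and the study's methods, the authors aligned reads to the bovine assembly UMD3.1 with TopHat2 (version 2.0.12, Bowtie2 2.2.3) and counted them per gene with HTSeq (version 0.6.1), and they deposited these raw counts without normalization. The strand setting and the handling of reads with several matches are not given in the sources used here. In RefSeq's gene table, which is of another assembly (ARS-UCD2.0), no gene overlaps JUNB, FOSL2 or MYC. Rows without an Ensembl identifier (1273, with 1.79% of all counts) were kept in totals and tests. The authors' table of genes called in BCE cells (DESeq 1.18.0) also holds group means, fold changes and p-values. Only its text column of protein matches was used, together with names in a supplementary gene table of the study, to pair names with identifiers. The group of genes under transcription terms comes from the study's table of gene ontology terms, from its part on genes called higher in BCE cells. The table deposited for BAE cells is byte for byte the BCE table and was not used.

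The tests were those of edgeR (version 4.0.16, under R 4.3.3). Genes passed filterByExpr (minimum count 10, minimum total 15), scaling was by TMM, and p-values of the quasi-likelihood test were adjusted after Benjamini and Hochberg over all genes tested, with a threshold of 0.05. Each comparison was fitted on its 4 libraries, and the difference of the LIF effects on all 8. Standard errors and 95% intervals were computed from the fold change and its F statistic. Similarity of patterns was measured on log2 CPM (prior count 2). A count of 3 corresponds to 0.0873 to 0.156 CPM, and counting errors cover counting only. The fits were tested on simulated counts. Tests of JUNB, FOSL2 and MYC were kept to BAE cells, since the other comparisons use libraries on which they were chosen, and a planned test between vehicle-treated cells was dropped for this reason.

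The 3 genes, the lists and the tests were chosen with earlier results of these data known. Besides these genes, up to 3 measured genes with the largest rise and up to 3 with the largest fall past the threshold were named from each list, and the 3 named genes with the most similar pattern to each. NEDD4L, CEBPD, IRF2BPL and DAB2IP were also named after their values were seen. Of 25889 identifiers 111 had a name. A gene of the lists is not reported here. Promoter motifs and protein sequences were not analysed here. Alternatives were DESeq2's size factors, the DESeq2 test (version 1.42.0), other filters, a block for the replicate number, one fit of all 8 libraries and leaving out each library.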

Additional observations from a re-analysis of the deposited data

How the results depend on the processing

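Of 159 log2 fold changes of JUNB, FOSL2 and MYC recomputed under the alternatives, none reversed direction. The number of genes called for LIF in BAE cells was 2889, 1920 with the DESeq2 test, and 1807 to 2905 with 1 library left out. For LIF in BCE cells it was 120, 437 without a filter on low counts, 217 with all 8 libraries in one fit, and 55 to 1423 with 1 library left out. Without the filter 58.8% of the BCE calls were higher with LIF, against 75% with it. For the difference of the LIF effects it was 502, 889 without the filter, and 261 to 948 with 1 library left out. Log2 fold changes between vehicle-treated cell types with 1 library left out ranged from -0.162 to -0.0794 for FOSL2 and from -0.269 to -0.180 for MYC. The cause was not tested.

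Same-numbered replicates of different groups correlated between -0.0531 and 0.100 in their deviations from the group means, with only 2 numbers, so the number was not taken as a pairing. The numbers used are those of the sample titles. The column names of the counts number the libraries differently, and the groups compared share only 1 number there, so no block could be formed from them. With the replicate number of the titles as a block, 226 genes were called for LIF in BCE and 2887 in BAE cells, and JUNB, FOSL2 and MYC stayed called in BAE cells. With a library left out, the lone library of its group was assumed to vary like the others.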
